A study of Homo sapiens with 11 samples.

Results

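The genes described here are 10 genes of the melanocyte lineage, chosen by name and with earlier results of these data known, among 61542 genes measured. They are the transcription factors MITF, SOX10 and PAX3, the pigment enzymes TYR, TYRP1 and DCT, the melanosome proteins PMEL and MLANA, the melanosome trafficking GTPase RAB38 and the receptor ERBB3. RNA was sequenced from SK-MEL-103, an established melanoma line of human origin, in which the study induced senescence, a lasting arrest of division, with either of 2 drugs. Cells received 0.5 µM tozasertib, an inhibitor of the Aurora kinases (n = 3), 0.25 µM etoposide, a topoisomerase II poison (n = 4), or DMSO, the solvent, as the control (n = 4). All groups were kept for 6 days and their medium was changed on day 3. Replicate 3 of tozasertib was not analysed here, and all results are from this single line. No source used here tells whether the replicates came from different cultures, and the p-values therefore reflect the scatter among these libraries alone, part of which may be technical.

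MITF is a basic helix-loop-helix leucine zipper factor that drives the pigment genes of melanocytes. Its gene has several promoters: most tissues use the distal ones, whereas melanocytes use the M promoter, which lies nearest to the shared exons and is bound by SOX10, PAX3, LEF1 and CREB. Pigment is made in melanosomes, where PMEL forms the fibrils on which TYR, TYRP1 and DCT deposit melanin.

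The promoters are shown first because the results on MITF turn on which of its start sites was used. Of the 10 genes, 6 had windows in the RefSeq promoter table (build GRCh38.p14), and each window holds the 250 bases before a start. SOX10, PMEL, ERBB3 and RAB38 had none. The first window of MITF (chr3:69739214-69739463, plus strand) precedes the most distal start, and the M window (chr3:69936342-69936591, plus strand) precedes the melanocyte start.
MITF first window: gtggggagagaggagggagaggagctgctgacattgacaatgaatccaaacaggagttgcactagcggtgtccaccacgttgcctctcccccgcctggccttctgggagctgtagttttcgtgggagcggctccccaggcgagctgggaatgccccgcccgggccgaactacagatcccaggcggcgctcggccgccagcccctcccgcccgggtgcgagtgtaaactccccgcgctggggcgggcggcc
MITF M window: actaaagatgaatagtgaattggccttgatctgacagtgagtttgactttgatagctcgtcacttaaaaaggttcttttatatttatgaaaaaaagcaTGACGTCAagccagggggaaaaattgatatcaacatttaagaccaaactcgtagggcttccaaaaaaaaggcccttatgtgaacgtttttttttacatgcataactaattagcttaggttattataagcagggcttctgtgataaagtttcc
Capitals in the M window mark TGACGTCA, in which the cyclic AMP response motif TGACGTC is read on both strands, as overlapping matches. TGACGTC was present on either strand in 3.12% of 35116 promoter windows and was not in the first window of MITF. The sites that MITF binds in pigment genes carry CATGTG, searched on both strands, which was in 9.42% of all windows. It occurred at 2 places each in the windows of TYR and TYRP1 and in the nearer of the DCT windows, and was in none of the windows of MITF, PAX3 or MLANA nor in the farther DCT window. These stretches show the copy of each gene that is read in the forward direction and lies farther from the start for TYR and TYRP1 and nearer to it for DCT, with the motif in capitals. They lie at chr11:89177759-89177788 (plus strand) for TYR, chr9:12693229-12693258 (plus strand) for TYRP1 and chr13:94479799-94479828 (minus strand) for DCT.
TYR site: agaaaagtcagtCATGTGcttttcagagga
TYRP1 site: ttggaagggaatCATGTGctgatcaagtcc
DCT site: tgcactttgggtCATGTGctaatgatgagg
The related motif CACGTG was in 6.35% of all windows and in none of these genes. A match only says that these letters are in the window.

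Libraries held 27882689 to 56534763 reads with tozasertib, 28547842 to 40170233 with etoposide and 28863009 to 32957818 with DMSO. The DMSO libraries stood apart from each other by gene length: the Spearman correlation across genes of a library's deviation from its group mean with transcript length was -0.476 in DMSO replicate 1 and 0.400 in DMSO replicate 4, against -0.0775 to 0.111 in the drug libraries. Summed over 8 melanocyte markers, the level was 393 to 400 CPM (counts per library size, scaled by the TMM method) with tozasertib, 330 to 349 CPM with etoposide and 491 to 552 CPM with DMSO, nearly all of it from SOX10, and 2 of the 8 were at 0 in each group. Of 6 fibroblast markers, none was at 0 in any group, and their sum was 135 to 141 CPM with tozasertib, 155 to 171 CPM with etoposide and 49.2 to 57.8 CPM with DMSO. Keratinocyte markers summed to 50.4 to 59.1 CPM with tozasertib, 55.9 to 58.6 CPM with etoposide and 48.2 to 68.2 CPM with DMSO, and of the 5, KRT1 and KRT5 were at 0 with etoposide and with DMSO. Immune markers summed to 43.5 to 48.7 CPM with tozasertib, 34.9 to 42.5 CPM with etoposide and 56.1 to 68.4 CPM with DMSO, and of the 5, CD3E was at 0 with etoposide and with DMSO. Whether these markers have a part in the results was not tested. In bulk RNA, fewer cells of a type and less RNA per cell cannot be told apart.

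The lineage genes moved in different directions under the drugs. ERBB3, RAB38 and SOX10 were lower under both drugs, PMEL was higher only in the tozasertib libraries, MITF was slightly higher under both, and TYR, TYRP1 and MLANA were nearly or wholly without reads in every group. For tozasertib against DMSO, 2 genes were higher (MITF, PMEL) and 4 lower (SOX10, PAX3, ERBB3, RAB38) by the quasi-likelihood test of edgeR with Benjamini-Hochberg adjustment over 17033 genes at an adjusted p under 0.05. In that comparison 59.2% of all genes were called, 29.9% higher and 29.4% lower. For etoposide against DMSO, 1 gene was higher (MITF), 4 were lower (SOX10, PAX3, ERBB3, RAB38) and PMEL was not called, where 58.3% of all genes were called, 27.7% higher and 30.6% lower. Only 6 of the 10 genes had enough reads to be tested, so these counts leave out TYR, TYRP1, DCT and MLANA. With more than 1 in 2 genes called against DMSO, a call by itself sets no gene apart, and the sizes below carry more than the counts. Both drugs share the DMSO libraries. The median log2 fold change of the 6 was -0.33 for tozasertib and -0.65 for etoposide, against 0.02 and -0.01 over all genes tested.

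**Figure D1:**
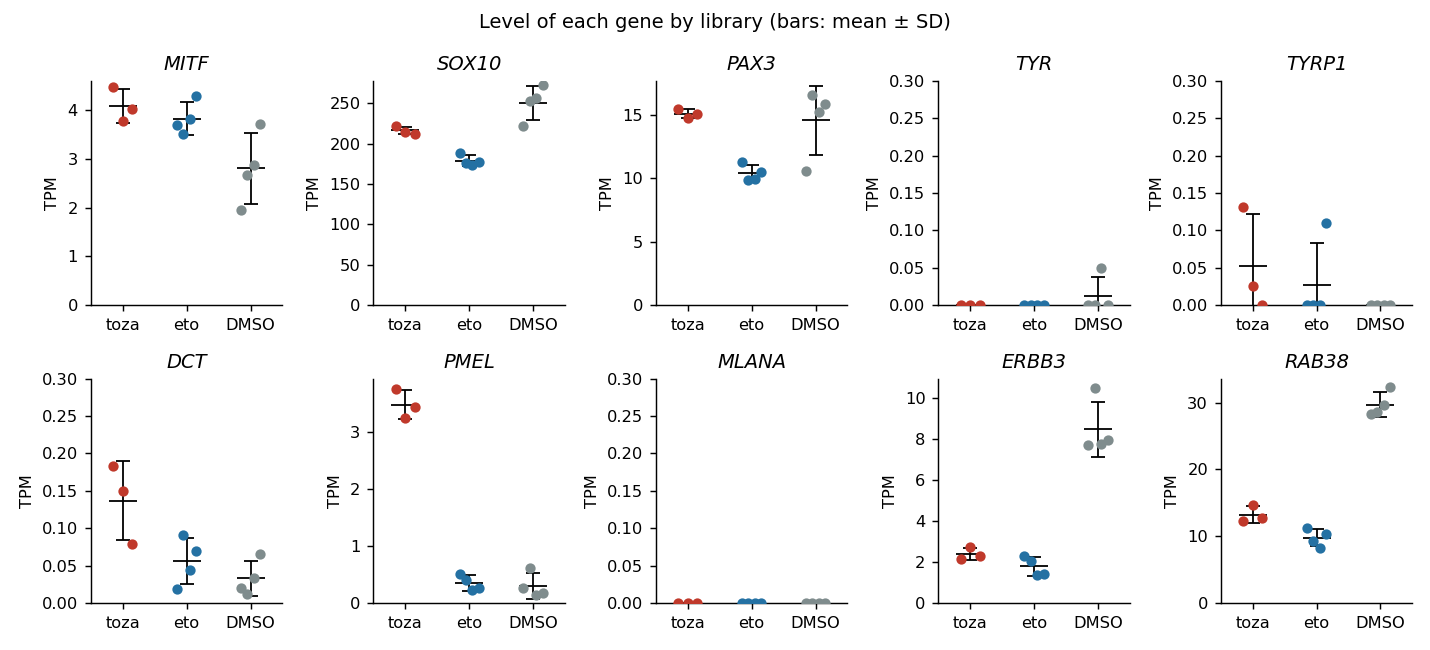
Level in TPM (transcript abundance, set against transcript length and depth) of each of the 10 genes in every library with tozasertib (toza), etoposide (eto) or DMSO, 1 point per library, with bars for mean ± SD (n = 3, 4 and 4). ERBB3 and RAB38 lie below the DMSO libraries with both drugs, PMEL lies between 3.24 and 3.74 TPM with tozasertib and at or under 0.615 TPM in the other libraries, and MLANA is at 0 in all.

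MITF changed little. Its level was 4.47, 3.77 and 4.01 TPM with tozasertib, 3.68, 3.51, 3.81 and 4.28 TPM with etoposide, and 1.96, 2.67, 2.88 and 3.71 TPM with DMSO, and the highest DMSO library lay among those with etoposide. In CPM the groups did not overlap with DMSO: 9.002 to 9.52 CPM with tozasertib and 8.84 to 10.4 CPM with etoposide, against 6.63 to 8.79 CPM with DMSO. The log2 fold change was 0.27 (SE 0.104, adjusted p = 0.0393) for tozasertib and 0.30 (SE 0.0970, adjusted p = 0.0186) for etoposide against DMSO, a 1.20-fold and a 1.23-fold difference. The lowest and highest DMSO libraries for MITF were replicates 1 and 4, the libraries at the ends of the length trend. With an offset for that trend the log2 fold change of MITF was 0.20 (SE 0.0874, adjusted p = 0.0621) for tozasertib, no longer called, and 0.27 (SE 0.0818, adjusted p = 0.00988) for etoposide, still called. The tozasertib call was also lost with no filter on low counts (adjusted p = 0.142). The MITF call for tozasertib was lost without any of 6 of the 7 libraries (tozasertib replicates 1, 2 and 4, DMSO replicates 1, 2 and 3; adjusted p = 0.0658 to 0.122) and held without DMSO replicate 4 (adjusted p = 0.0102). The call for etoposide was lost without etoposide replicate 4 (adjusted p = 0.0604).

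Nearly all MITF reads were assigned to its most distal start. Transcripts were grouped by start sites within 500 bases of each other, which gave 7 groups over the MITF gene (chr3:69739456-69968336, plus strand). The first group, starting at 69739456 to 69739482 with 6 transcripts, held 3345 of the reads and from 98.1% to 100% of the MITF TPM in every library. The M group, 197 kb downstream at 69936587 to 69936829 and also with 6 transcripts, had 3.09 reads in all: 1.04 in tozasertib replicate 1, 1.03 in etoposide replicate 1 and 1.02 in etoposide replicate 2. The M group was at 0 in the other 8 libraries, all 4 with DMSO among them, and reached at most 1.95% of MITF TPM. All its reads were assigned to MITF-204, a transcript of 1069 bases and 3 exons whose last exon lies within an intron of MITF-205. The other M transcripts, MITF-201 and MITF-205 among them, had none. A further group at 69866224 to 69866267 had 2.38 reads in tozasertib replicate 1, and the other 4 groups had none. No assigned read in the 4 DMSO libraries allows up to 0.0244 RPM of assigned reads for the M group (3 reads over their total, with no TMM scaling, counting error only). MITF-205 has a first exon of 164 bases, and its other exons are also exons of the first group. Reads of shared exons do not show their start, so the M level itself may exceed this limit.

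**Figure D2:**
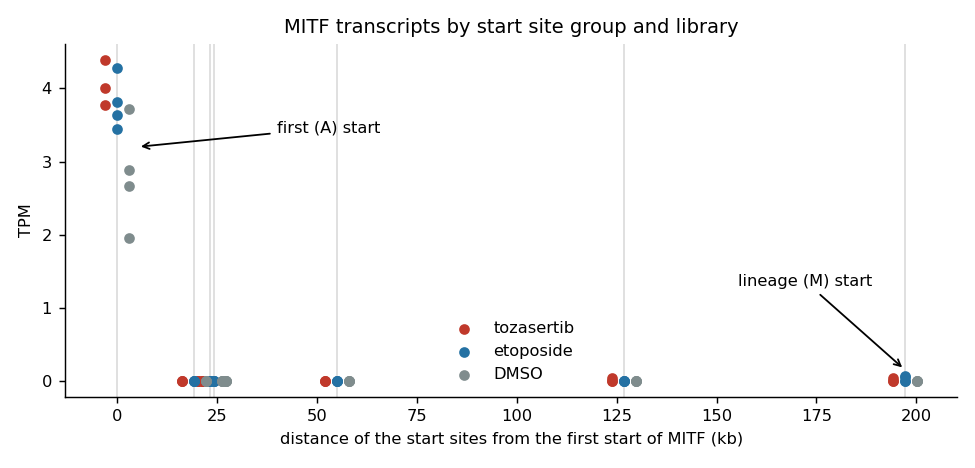
TPM of MITF transcripts by start site group (y axis) against the distance in kb of the group from the first start (x axis), 1 point per library, with the points of each drug and of DMSO set side by side and gray lines at the true positions. The first start carries from 1.96 to 4.39 TPM and the M start, at 197 kb, at most 0.0683 TPM.

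The share of the first start was 99.4% ± 0.998 (SD, n = 3) with tozasertib, 99.2% ± 0.996 (SD, n = 4) with etoposide and 100% ± 0 (SD, n = 4) with DMSO. It did not differ beyond the spread in a two-sided exact permutation test (p = 0.857 for tozasertib and p = 0.429 for etoposide against DMSO), where the smallest p possible is 0.0571 with 3 against 4 libraries and 0.0286 with 4 against 4. Tested as a start site group of its own, the first start of MITF had a log2 fold change of 0.23 (SE 0.122, adjusted p = 0.192) for tozasertib and 0.28 (SE 0.113, adjusted p = 0.0879) for etoposide, so neither passed, where 30.6% and 30.1% of 33100 start site groups were called. Between the drugs it had -0.06 (SE 0.122, adjusted p = 0.943), where 2.25% of the groups were called. Without DMSO replicate 4 the etoposide value was 0.36 and passed (adjusted p = 0.0349). The main transcripts of this start, MITF-203 and MITF-216, differ by 18 bases at the head of an internal exon, which begins at chr3:69951812 in MITF-203 and at 69951830 in MITF-216 and ends at 69951886 in both. They also differ at the outer ends, starting at 69739464 in MITF-203 and 69739482 in MITF-216 and ending at 69968332 in MITF-203 and 69968336 in MITF-216. MITF-203 had 1.11, 1.26 and 0 TPM with tozasertib, 0, 3.44, 1.39 and 2.29 TPM with etoposide, and 0.987, 1.81, 0.809 and 1.46 TPM with DMSO. MITF-216 had 2.70, 2.51 and 3.82 TPM with tozasertib, 3.52, 0, 2.42 and 1.82 TPM with etoposide, and 0.970, 0.860, 1.92 and 1.74 TPM with DMSO. The split between them changed from all of one form to all of the other among etoposide libraries, so the estimate of the split was not stable between replicates.

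SOX10, the neural crest factor that acts upstream of MITF, was the most abundant of the 10 genes. It had 222, 215 and 213 TPM with tozasertib, 189, 176, 174 and 177 TPM with etoposide, and 222, 253, 256 and 273 TPM with DMSO. The etoposide libraries were lowest and the DMSO libraries highest, and DMSO replicate 1 only just exceeded the highest tozasertib library (221.6 TPM in tozasertib replicate 1 and 222.1 TPM in DMSO replicate 1), while in CPM the groups stood well apart (377 to 383 CPM with tozasertib, 317 to 337 CPM with etoposide, 483 to 542 CPM with DMSO). The log2 fold change was -0.44 (SE 0.0548, adjusted p = 1.56e-05) for tozasertib and -0.67 (SE 0.0505, adjusted p = 1.13e-07) for etoposide, 1.35-fold and 1.59-fold lower than with DMSO. SOX10 lies at chr22:37970686-37987422 on the minus strand and overlaps POLR2F on the other strand, a subunit of the RNA polymerases with a mean of 150.9 TPM. The library kit marks strand, while the strand setting of the counting is not given in the sources used here, so some reads of either gene may be counted for the other.

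PAX3, a paired box factor of the neural crest, had 15.4, 14.7 and 15.1 TPM with tozasertib, 11.3, 9.88, 9.96 and 10.5 TPM with etoposide, and 10.6, 16.6, 15.3 and 15.9 TPM with DMSO. In CPM its etoposide libraries (18.0 to 19.9 CPM) lay below all DMSO libraries (24.8 to 32.1 CPM), whereas tozasertib libraries (23.99 to 25.96 CPM) overlapped with them. The log2 fold change was -0.23 (SE 0.0842, adjusted p = 0.0326) for tozasertib and -0.63 (SE 0.0789, adjusted p = 1.42e-05, 1.55-fold lower) for etoposide. DMSO replicate 1 was the lowest DMSO library for PAX3 as for MITF and SOX10. The tozasertib call for PAX3 was lost without any of tozasertib replicates 2 and 4 and DMSO replicates 2, 3 and 4 (adjusted p = 0.0567 to 0.109) and under 5 other settings, from an adjusted p of 0.0535 with no filter on low counts to 0.237 with scaling by library size alone (log2 fold change -0.14).

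The genes that make pigment were close to silent. MLANA, a melanosome protein used to recognise melanocytes, had 0 reads in all 11 libraries, which allows up to 0.0249 RPM with tozasertib, 0.0221 RPM with etoposide and 0.0244 RPM with DMSO. TYR, tyrosinase, the rate-limiting enzyme of melanin synthesis, had 2 reads in DMSO replicate 3 and none elsewhere. TYRP1, its relative, had 3, 1 and 0 reads with tozasertib, 0, 0, 0 and 1 with etoposide and none with DMSO. So these defining markers of melanocytes gave at most 3 reads in any library, while SOX10 was abundant in all. TYRP1 and MLANA also share their loci with genes of the other strand, LURAP1L-AS1 and KIAA2026.

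DCT, dopachrome tautomerase, was low in every group, with 24, 10 and 7 reads with tozasertib, 2, 4, 4 and 5 with etoposide, and 2, 1, 3 and 5 with DMSO. Its mean was 0.137 TPM ± 0.0533 (SD, n = 3) with tozasertib, 0.0560 TPM ± 0.0312 (SD, n = 4) with etoposide and 0.0327 TPM ± 0.0234 (SD, n = 4) with DMSO. In TPM the tozasertib libraries (0.0785 to 0.183) lay above all DMSO libraries (0.0124 to 0.0655) and overlapped with those of etoposide (0.0191 to 0.0912). DCT fell under the filter on low counts and was not tested. Without that filter it was called for tozasertib against DMSO (log2 fold change 1.74, SE 0.696, adjusted p = 0.0451) and not for etoposide (0.28, adjusted p = 0.870).

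PMEL, the fibril protein of the melanosome, had 243, 93 and 153 reads with tozasertib, 19, 17, 9 and 10 with etoposide, and 8, 17, 6 and 7 with DMSO. These were 3.74, 3.24 and 3.43 TPM with tozasertib, 0.514, 0.403, 0.223 and 0.260 TPM with etoposide, and 0.269, 0.615, 0.132 and 0.171 TPM with DMSO. All tozasertib libraries were above all others, while etoposide and DMSO libraries overlapped. PMEL was 11.9-fold higher with tozasertib than with DMSO (log2 fold change 3.57, SE 0.333, adjusted p = 9.79e-07) and 9.48-fold higher than with etoposide (3.25, SE 0.319, adjusted p = 2.30e-05), where 11.1% of all genes were called, 5.66% higher and 5.45% lower. For etoposide against DMSO the value was 0.33 (SE 0.373, adjusted p = 0.475), and 0.79 (adjusted p = 0.0650) without DMSO replicate 2. With tozasertib most of PMEL was the coding transcript PMEL-206, at 3.19, 2.47 and 3.28 TPM.

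The PMEL gene (chr12:55954105-55973317, minus strand) overlaps CDK2, a cell cycle kinase and itself a target of MITF, on the other strand. Of the PMEL transcripts only PMEL-208, which ends at 55973317, reaches into CDK2, and it was at 0 TPM in all libraries. The start of PMEL-206 faces CDK2 from a distance of 739 bases. CDK2 had 32.5 CPM ± 1.11 (SD, n = 3) with tozasertib and 38.9 CPM ± 2.80 (SD, n = 4) with etoposide, against 91.8 CPM ± 1.93 (SD, n = 4) with DMSO. The log2 fold change of CDK2 was -1.499 (adjusted p = 8.32e-10) for tozasertib and -1.24 (adjusted p = 1.72e-09) for etoposide. Whether reads of either gene were counted for the other was not tested.

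**Figure D3:**
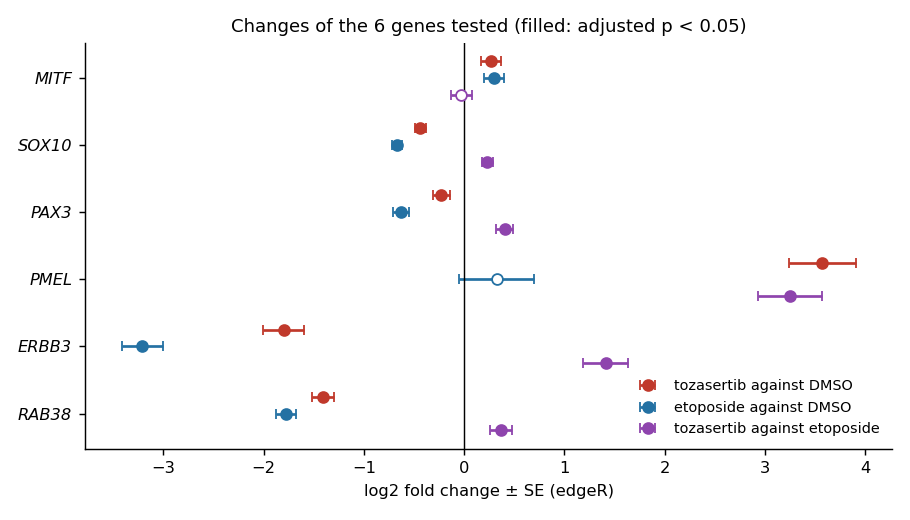
Log2 fold change of the 6 genes tested with edgeR for tozasertib against DMSO (red), etoposide against DMSO (blue) and tozasertib against etoposide (purple). Bars are SE and filled points have an adjusted p under 0.05. PMEL stands at 3.57 with tozasertib and 0.33 with etoposide, and ERBB3 at -1.80 and -3.21.

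RAB38, a small GTPase that brings cargo such as TYR and TYRP1 to the melanosome, had 12.3, 14.7 and 12.7 TPM with tozasertib, 11.2, 9.35, 8.16 and 10.4 TPM with etoposide, and 28.2, 28.6, 29.6 and 32.4 TPM with DMSO. No library of either drug reached the lowest DMSO library. RAB38 was 2.65-fold lower with tozasertib (log2 fold change -1.41, SE 0.109, adjusted p = 1.66e-07) and 3.42-fold lower with etoposide (-1.78, SE 0.102, adjusted p = 8.59e-09). RAB38 is at chr11:88113251-88175443, minus strand, and nearly all of its TPM was in a single coding transcript.

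ERBB3, the neuregulin receptor that signals as a partner of ERBB2 and is a target of SOX10, showed the largest fall of the 10 genes. It had 332, 174 and 197 reads with tozasertib, 113, 88, 55 and 38 with etoposide, and 550, 690, 557 and 550 with DMSO. In CPM this was 5.68, 6.09 and 5.35 with tozasertib, 2.76, 2.85, 1.55 and 1.33 with etoposide, and 19.001, 24.5, 17.3 and 18.5 with DMSO, so the groups did not overlap. ERBB3 was 3.48-fold lower with tozasertib (log2 fold change -1.80, SE 0.205, adjusted p = 6.62e-06) and 9.25-fold lower with etoposide (-3.21, SE 0.206, adjusted p = 2.44e-08) than with DMSO.

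As assigned to transcripts, the drop in ERBB3 was not the same for all forms. The longest coding transcript, of 5615 bases and spanning chr12:56080165-56103505 on the plus strand, encodes the full-length receptor. It had 1.303, 1.43 and 1.28 TPM with tozasertib, 0.323, 0.241, 0.0357 and 0 TPM with etoposide, and 2.52, 4.47, 3.53 and 3.99 TPM with DMSO. A short coding transcript of ERBB3, 1027 bases long and ending at 56085623, had 0.508, 1.16 and 0.667 TPM with tozasertib, 0.721, 1.17, 0.608 and 0.558 TPM with etoposide, and 3.29, 3.53, 2.28 and 2.87 TPM with DMSO. The full-length form thus lay lowest in the etoposide libraries, while the short form overlapped between the drugs. The full-length form made up 51.9% to 60.2% of ERBB3 TPM with tozasertib, 0% to 13.98% with etoposide and 32.6% to 50.3% with DMSO. This split was chosen for description after its values were seen and has no test.

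**Figure D4:**
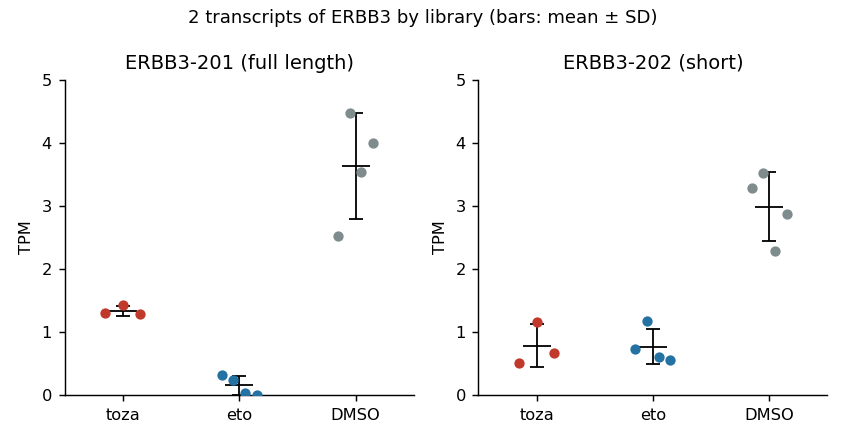
TPM of the full-length and of the short coding transcript of ERBB3 in each library with tozasertib (toza), etoposide (eto) or DMSO, with bars for mean ± SD (n = 3, 4 and 4). The etoposide libraries reach at most 0.323 TPM of the full-length form, below all others, while for the short form the drug libraries overlap. The assignment of reads to forms was not stable between etoposide replicates.

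The size of the ERBB3 change depended on the unit. Summed over transcripts, ERBB3 was 2.39 TPM ± 0.311 (SD, n = 3) with tozasertib, 1.79 TPM ± 0.473 (SD, n = 4) with etoposide and 8.49 TPM ± 1.34 (SD, n = 4) with DMSO. With counts scaled by transcript length the log2 fold change was -2.09 for tozasertib and -2.41 for etoposide, and both calls held. The 2 drugs, however, no longer differed by the test in that unit (log2 fold change 0.32, adjusted p = 0.421), against 1.41 (SE 0.221, adjusted p = 0.00112) in reads.

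Between the drugs, 5 of the 6 genes were higher with tozasertib than with etoposide and none lower, a comparison in which 5.66% of all genes were called higher and 5.45% lower (964 and 929 genes, and 1027 and 1769 with an offset for the length trend). Beside PMEL and ERBB3 these were PAX3 (log2 fold change 0.40, SE 0.0843, adjusted p = 0.00740), RAB38 (0.37, SE 0.110, adjusted p = 0.0490) and SOX10 (0.23, SE 0.0542, adjusted p = 0.0140). MITF had -0.03 (SE 0.103, adjusted p = 0.907), and its sign turned with scaling by library size alone. The SOX10 call was lost without any of tozasertib replicates 1, 2 and 4 (adjusted p = 0.0570 to 0.0651), and the RAB38 call without any of those or of etoposide replicates 2, 3 and 4 (adjusted p = 0.0711 to 0.213), whereas without etoposide replicate 1 it held (adjusted p = 0.0279). Among the other processing settings, the SOX10 call was lost under 2 (adjusted p = 0.0516 and 0.0593) and the RAB38 call under 4 (adjusted p = 0.0645 to 0.109). The count of genes higher was 3 without any 1 of the tozasertib libraries and 2, PAX3 and PMEL, with length-scaled counts.

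By level per length, SOX10 led in every group and the rest changed places. With DMSO the order in mean TPM was SOX10 (251), RAB38 (29.7), PAX3 (14.6), ERBB3 (8.49), MITF (2.80) and PMEL (0.297), and no neighbours overlapped, though PAX3 (10.6 to 16.6) and ERBB3 (7.73 to 10.5) nearly met. With etoposide it was SOX10 (179), PAX3 (10.4), RAB38 (9.76), MITF (3.82), ERBB3 (1.79) and PMEL (0.350), where PAX3 and RAB38 overlapped. With tozasertib it was SOX10 (216), PAX3 (15.1), RAB38 (13.2), MITF (4.08), PMEL (3.47) and ERBB3 (2.39). There RAB38 (12.3 to 14.7) reached up to the lowest PAX3 library and PMEL (3.24 to 3.74) up to the lowest MITF library, so these neighbours stood apart by less than their spread. MITF thus lay below ERBB3 with DMSO and above it with either drug.

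Of the 32 other melanosome and pigment genes listed, 28 were tested, and with tozasertib 11 were higher, 7 lower and 10 not called, with etoposide 9 higher, 10 lower and 9 not called. Over all genes 29.9% were higher and 29.4% lower with tozasertib, and 27.7% higher and 30.6% lower with etoposide. These counts against DMSO, and those of the lists below, lie on both sides, as those of all genes do. Whether any list differs from all genes was not tested. The median log2 fold change of the melanosome and pigment list was 0.01 with tozasertib and -0.03 with etoposide, beside 0.02 and -0.01 over all genes. GPNMB, a glycoprotein of melanosomes and lysosomes that resembles PMEL, had 3.19 CPM ± 0.498 (SD, n = 3) with tozasertib and 2.95 CPM ± 0.414 (SD, n = 4) with etoposide, against 0.534 CPM ± 0.148 (SD, n = 4) with DMSO. It was 5.93-fold higher with tozasertib (adjusted p = 6.55e-07) and 5.45-fold higher with etoposide (adjusted p = 6.69e-07), so it was called with both drugs. LYST, a regulator of lysosome size, rose 2.91-fold with tozasertib (adjusted p = 1.51e-07) and 1.81-fold with etoposide (adjusted p = 2.07e-05), and SYTL2, a partner of RAB27A, rose 1.64-fold with tozasertib (adjusted p = 1.99e-07) and 1.74-fold with etoposide (adjusted p = 3.29e-08). RAB27A, which ties melanosomes to the actin motor, was 1.504-fold lower with tozasertib (adjusted p = 2.27e-06) and 1.38-fold lower with etoposide (adjusted p = 8.72e-06). Between the drugs, LYST and BLOC1S3 were higher with tozasertib, BLOC1S3 being named after its values were seen. In that comparison, here and for the lists below, 5.66% of all genes were called higher and 5.45% lower.

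Of 14 signals and factors upstream of MITF, 13 were tested, with 4 higher and 6 lower with tozasertib, and 4 higher and 5 lower with etoposide, where 59.2% of all genes were called with tozasertib and 58.3% with etoposide. The median log2 fold change of the list was -0.24 with tozasertib and -0.34 with etoposide, beside 0.02 and -0.01 over all genes. TFAP2A, a factor of melanocyte differentiation, rose 2.10-fold with tozasertib (adjusted p = 9.22e-09) and 1.84-fold with etoposide (adjusted p = 3.12e-08). ATF4, a stress factor that represses MITF, fell 1.44-fold with tozasertib (adjusted p = 6.35e-06) and 1.63-fold with etoposide (adjusted p = 1.56e-07). CTNNB1, the β-catenin of Wnt signalling, fell 1.39-fold with tozasertib (adjusted p = 3.19e-06) and 1.44-fold with etoposide (adjusted p = 4.56e-07). KITLG, ZEB2 and POU3F2 were the other genes called higher with each drug, and CREB1, SOX9 and GLI2 were lower with each, named after their values were seen. LEF1, which binds the M promoter, was lower with tozasertib (log2 fold change -0.24, adjusted p = 0.00597) and was the gene of this list called between the drugs (-0.24, adjusted p = 0.0335).

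The family relatives of the factors are expressed elsewhere in the neural crest and in other tissues. TFE3, which binds the same sites as MITF, had 62.2 TPM ± 0.738 (SD, n = 3) with tozasertib and 53.4 TPM ± 1.69 (SD, n = 4) with etoposide, against 40.1 TPM ± 4.07 (SD, n = 4) with DMSO, more than MITF in each group. It rose 1.29-fold with tozasertib (adjusted p = 6.12e-05) and 1.18-fold with etoposide (adjusted p = 0.000898). TFEB, at 0.951 TPM ± 0.0259 (SD, n = 3) with tozasertib, 0.846 TPM ± 0.0947 (SD, n = 4) with etoposide and 0.810 TPM ± 0.293 (SD, n = 4) with DMSO, was not called by edgeR (adjusted p = 0.592 for tozasertib and adjusted p = 0.661 for etoposide). TFEC had 24, 19 and 15 reads with tozasertib and 9, 3, 7 and 4 with etoposide, against 2, 1, 0 and 0 with DMSO, with an adjusted p by edgeR of 0.000125 for tozasertib and 0.00767 for etoposide. TFEC had enough reads to be tested only through the tozasertib libraries (0.407 to 0.665 CPM, against at most 0.220 CPM with etoposide and 0.0691 CPM with DMSO), so the tozasertib call is no independent result, and the etoposide call rests on 23 reads against 3. SOX9 was 1.95-fold lower with tozasertib (adjusted p = 1.66e-05) and 1.93-fold lower with etoposide (adjusted p = 7.58e-06), the direction of SOX10. SOX8 and PAX7 had 0 reads in all libraries.

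Of 21 targets of MITF outside pigment, 18 were tested, with 7 higher and 7 lower with tozasertib and 6 higher and 9 lower with etoposide, beside 29.9% higher and 29.4% lower with tozasertib and 27.7% and 30.6% with etoposide over all genes. The median log2 fold change of the list was -0.23 with tozasertib and -0.25 with etoposide. Next to CDK2, DIAPH1, an actin nucleator, was 1.85-fold lower with tozasertib (adjusted p = 3.54e-07) and 1.78-fold lower with etoposide (adjusted p = 2.54e-07). ASAH1, the lysosomal acid ceramidase, rose 1.93-fold with tozasertib (adjusted p = 6.95e-09) and 2.03-fold with etoposide (adjusted p = 1.98e-09), and ACP5, a lysosomal acid phosphatase, 5.48-fold with tozasertib (adjusted p = 2.08e-08) and 3.43-fold with etoposide (adjusted p = 2.96e-07). Between the drugs 4 of these genes were higher with tozasertib, ACP5 and, named after their values were seen, CEACAM1, PPARGC1A and PIR, and CDK2 was lower. Over all genes 5.66% were called higher and 5.45% lower in that comparison. CEACAM1, a cell adhesion protein, had 70, 30 and 33 reads with tozasertib and 6, 2, 2 and 7 with etoposide, against 3, 2, 0 and 1 with DMSO, with an adjusted p of 2.66e-05 for tozasertib and 0.140 for etoposide. It too had enough reads to be tested only through the tozasertib libraries.

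Among genes of the neural crest linked to SOX10, S100B, a calcium-binding glial marker, rose 2.82-fold with tozasertib (adjusted p = 0.000228) and 1.87-fold with etoposide (adjusted p = 0.00658). MIA, a protein secreted by melanoma cells, had 84.8 TPM ± 13.9 (SD, n = 3) with tozasertib and 55.3 TPM ± 12.5 (SD, n = 4) with etoposide, against 399 TPM ± 82.2 (SD, n = 4) with DMSO. It fell 5.92-fold with tozasertib (adjusted p = 7.85e-07) and 8.54-fold with etoposide (adjusted p = 5.60e-08), the direction of SOX10.

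**Figure D5:**
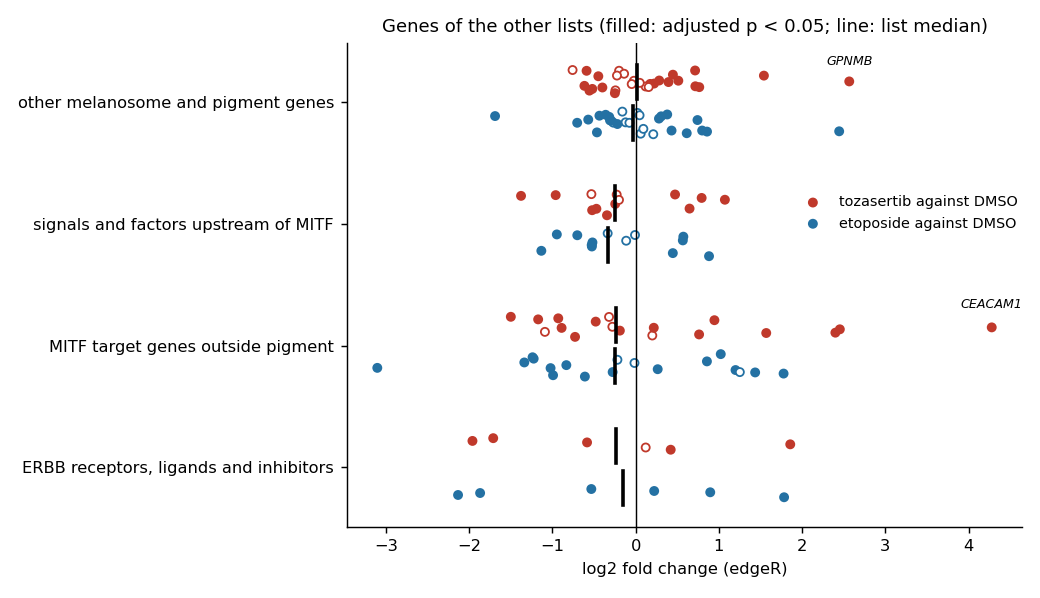
Log2 fold change against DMSO of the genes tested in 4 further lists, with tozasertib (red) above etoposide (blue), 1 point per gene, filled where the adjusted p was under 0.05, and a black line at each list's median. Genes lie on both sides of 0 in every list, and the labelled genes reach 4.28 (CEACAM1) and 2.57 (GPNMB) with tozasertib.

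Of 10 further receptors, ligands and inhibitors of the ERBB family, 6 were tested, with 2 higher and 3 lower with tozasertib and 3 higher and 3 lower with etoposide, where 59.2% of all genes were called with tozasertib and 58.3% with etoposide. The median log2 fold change of the list was -0.23 with tozasertib and -0.15 with etoposide. NRG1, the main ligand of ERBB3, rose 3.63-fold with tozasertib (adjusted p = 6.75e-08) and 3.44-fold with etoposide (adjusted p = 5.78e-08). NRG2, a related ligand, fell 3.27-fold with tozasertib (adjusted p = 2.63e-07) and 4.39-fold with etoposide (adjusted p = 1.60e-08). ERRFI1, which inhibits the kinases of the family, fell 3.89-fold with tozasertib (adjusted p = 1.06e-07) and 3.65-fold with etoposide (adjusted p = 5.48e-08). LRIG1, which promotes degradation of the receptors, rose 1.34-fold with tozasertib (adjusted p = 0.00394) and 1.86-fold with etoposide (adjusted p = 4.20e-06), and was the only gene of this list called between the drugs, lower with tozasertib (log2 fold change -0.48, adjusted p = 0.00955). EGFR was lower with both drugs and ERBB2, the signalling partner of ERBB3, was higher with etoposide, named after their values were seen.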

How the data were processed

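Poly(A) RNA of 11 SK-MEL-103 samples was sequenced as strand-specific libraries. The deposited tables are Salmon output with 1 line per transcript, and per the file headers hold expected counts of reads that are not normalized, TPM scaled to the same sum per sample by the authors, and the effective length. Salmon 1.9.0, cutadapt 4.7, DESeq2 1.40.2, R 4.4.2 and GENCODE 44 are listed by the submitters' notes. The study's methods name a different aligner, and the options and strand setting of Salmon are not given.

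Transcripts were joined to GENCODE release 44 (GRCh38) by versioned identifiers. Of 251645 transcripts 99.6% matched, and the rest, with 0.318% to 0.359% of reads, were left out. Expected counts were summed to genes and rounded. Genes were tested with edgeR 4.0.16 in R 4.3.3 (quasi-likelihood test, two-sided, TMM, filterByExpr, 1 mean per group over all 11 samples, Benjamini-Hochberg adjustment, called at an adjusted p under 0.05). Each SE follows from the F statistic and its fold change. Levels are CPM with TMM scaling, or the deposited TPM summed over transcripts, which compares genes per length. Shares of MITF start sites were compared by exact permutation over samples. The test was checked on simulated counts with known changes. Depth sets the precision: limits for 0 reads are 3 reads over a group's total and cover counting error only. Promoters are from RefSeq. Every pair of replicates differed by more than counting noise.

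The 10 genes and the other lists were chosen with earlier results of these data known. All 10 are named, with up to 4 genes of each further list by smallest adjusted p against DMSO, and all family relatives. Further genes are said to be named after their values were seen. The list of genes linked to SOX10 is not reported here as a whole. Alternatives were other scalings (DESeq2 1.42.0 size factors, library size alone), no filter, length-scaled counts, a length trend offset, DESeq2, limma-voom 3.58.1, 2 groups only, a replicate block and leaving out each library.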

Additional observations from a re-analysis of the deposited data

Results flagged for a closer look

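The SOX10 level in etoposide replicate 1, 336.6 CPM, lay far from the other 3 etoposide libraries (317 to 320 CPM): its gap to the nearest of them was 0.833 of the group's whole range, where Dixon's 95% limit for 4 samples is 0.829. It was still below every DMSO library (483 to 542 CPM). Over 12 sets of 4 libraries examined this was the only 1 past the limit. Chance passes it in about 1 set in 20, so 1 flag among 12 sets does not set this library apart.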

How the results depend on the processing

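The falls of ERBB3, RAB38 and SOX10 with both drugs and of PAX3 with etoposide, the higher PAX3 with tozasertib than with etoposide, and the rise of PMEL with tozasertib against DMSO and against etoposide, kept their direction and their call under every alternative run. The modest calls did not. The 1 gene higher with etoposide, MITF, became 0 with no filter on low counts (adjusted p = 0.0678) and 0 with length-scaled counts (adjusted p = 0.0651), and 0 to 1 when each library was left out. The 2 genes higher with tozasertib became 1 with the length trend offset, 1 with length-scaled counts and 1 with only the 2 groups compared, MITF being lost (adjusted p = 0.0621, 0.0668 and 0.0643), and 1 to 2 when each library was left out. With no filter on low counts MITF was lost too for tozasertib against DMSO (adjusted p = 0.142), and that count stayed at 2 because DCT came in. The 5 genes higher with tozasertib than with etoposide became 2 with length-scaled counts and 4 to 5 under the other settings. They became 3 to 5 when each library was left out. The 4 genes lower with tozasertib became 3, PAX3 being lost, with library size alone (adjusted p = 0.237), no filter (0.0535), the replicate block (0.0613), length-scaled counts (0.122) and only the 2 groups (0.0600), and 3 to 4 when each library was left out. For these the cause was not tested. MITF between the drugs turned sign at values near 0: 0.0114 with library size alone and 0.0179 with length-scaled counts, and -0.0583 to 0.0173 when each library was left out, the highest without etoposide replicate 4. For the first start of MITF that value was 0.00915 with library size alone. The first start against DMSO with etoposide ran from 0.22 to 0.36 when each library was left out, the highest without DMSO replicate 4. The difference in its share, in percentage points, between tozasertib and DMSO ran from -0.864 to 0 when each library was left out, 0 without tozasertib replicate 1, and between tozasertib and etoposide from -0.102 to 0.842, and was -0.0415 as a share of reads. DCT passed the filter without tozasertib replicate 4 and without DMSO replicates 1 and 4, and was then called higher with tozasertib than with DMSO by edgeR (adjusted p = 0.0103 and adjusted p = 0.0213). It passed only through the tozasertib libraries, where it is high, so this supports nothing by itself. Leaving out DMSO replicates 1 and 4 together, an alternative chosen after seeing the data, changed no call of the 6 tested genes against DMSO. Over all genes between the drugs, 964 higher and 929 lower became 600 and 518 with length-scaled counts, 1785 and 1764 with only the 2 groups, 1034 and 1550 with DESeq2, and 562 to 1147 and 470 to 1028 when each library was left out. Scaling moved the median of all genes by at most 0.09 on the log2 scale.

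Same-numbered libraries deviated together only weakly (r across genes from -0.04 to 0.05 for etoposide and DMSO, -0.09 to 0.02 for tozasertib and DMSO, 0.09 to 0.23 for tozasertib and etoposide). Tozasertib and etoposide libraries of different numbers had r from -0.21 to 0.16. The labels do not say that a number marks a shared batch, so whether same-numbered samples share more than the number is not known. With the replicate number as a block, the PAX3 call for tozasertib and the RAB38 call between the drugs (adjusted p = 0.109) were lost and no other call of the 6 genes changed. Genes with a few reads, such as DCT, TYR and TYRP1, are limited by depth.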

Other observations

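The genes whose log2 CPM followed MITF most closely over the 11 libraries were CSNK1G1 (Pearson 0.982), COPB2 (0.977), TMOD2 (0.976), EIF5B (0.975) and DHX33 (0.972), taken as the 5 protein-coding genes with the highest correlation. For SOX10 they were PLXNA2 (0.995), ENSG00000260007 (0.993), FOXC1 (0.992), C15orf39 (0.991) and ROBO4 (0.990). The 11 libraries fall into 3 groups that all these genes share, and the values are a description with no test.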
